A study of Arabidopsis thaliana with 12 samples.

Results

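The genes described here are those whose array probe gave little signal both in light and in the dark. They were chosen by level: a probe had to name exactly 1 gene, and its deposited intensity had to average under 0.25 in the 6 light samples and under 0.25 in the 6 dark samples. Of 692 probes that name 1 gene, 75 met this limit. The plastid ribosomal protein gene AT5G65220 and PIFI were left out by name, which leaves 73 genes, each with 1 such probe, among 3439 probes in all. Because the level chose the genes, every level below is a description, and no test is made of it.

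The samples came from Arabidopsis thaliana, wild type, ecotype Landsberg, with total RNA hybridised to the array. The light group had 30 min of light following 12 h in darkness, and the dark group had 12 h of darkness alone, with 6 samples in each. The labels give neither the tissue nor the age of the plants. Without a group held in darkness for another 30 min, an effect of light and one of elapsed time cannot be told apart. Whether the 6 samples per group were separate plants is unstated, so the spread given here may be partly technical.

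Nuclear genes encode most proteins of the chloroplast, and light after darkness is known to change the transcript levels of many of them. On an array, the brightness of a spot depends on the transcript and also on the probe that captures it. A low intensity is therefore a low signal of that probe, and it does not measure how much transcript a gene makes relative to another gene. The labels do not say how the deposited intensities were scaled or corrected for background. They run from 0 to 77.6 in light and from 0 to 100 in the dark, with no negative value. The highest mean of a probe was 65.5 in light and 100 in the dark. In the dark the brightest probe thus stood at the top value in every sample. Whether both groups were scaled in the same way is not stated. The median of all probes was 0.678 ± 0.00794 in light and 0.467 ± 0.0202 in the dark (SD, n = 6 each).

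The 73 genes fell into a group at or close to 0 and a group that was dim but above 0 in nearly every sample. By the higher of the means in light and in the dark, 38 genes lay between 0 and 0.0229 and 35 genes lay between 0.102 and 0.2496. None of the 692 probes that name 1 gene lay between 0.0229 and 0.102, and 28 of all 3439 probes did. Both edges are values of these genes themselves. The absence of such probes between them is thus set by how the edges were taken, and the counts are not compared. The limit of 0.05 used to part both groups was set after the values were seen.

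**Figure D1:**
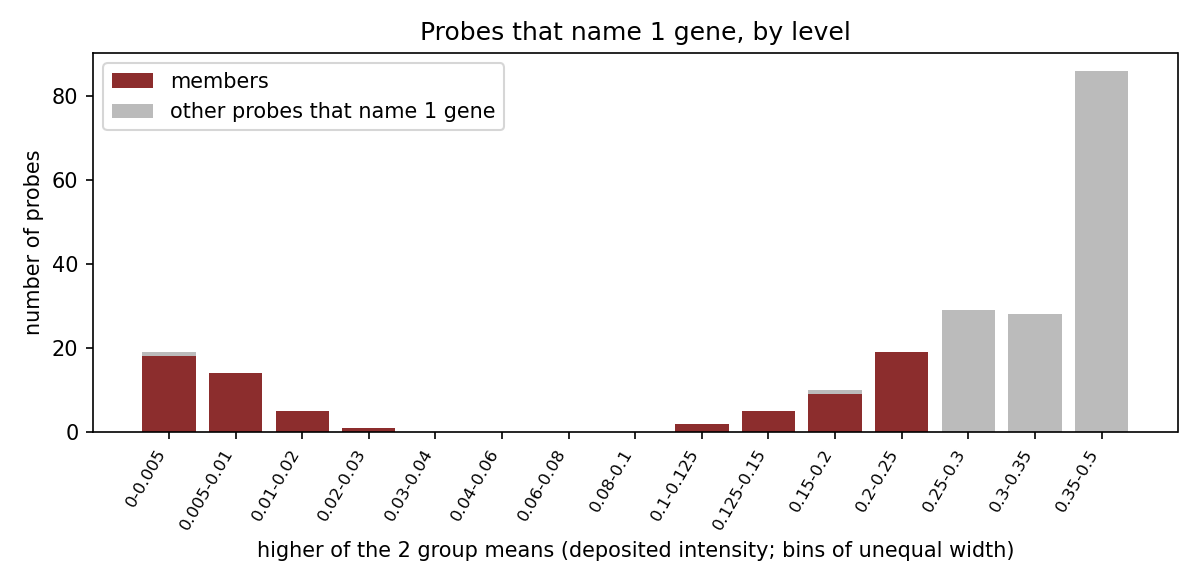
Number of probes that name 1 gene (vertical axis) by the higher of their mean deposited intensities in light and in the dark (horizontal axis, bins of unequal width, shown up to 0.5). Dark red bars are the 73 genes described here and grey bars are other genes, including AT5G65220 and PIFI, left out by name. No probe stands in the bins from 0.03 to 0.1.

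A low signal was about as common among probes of other kinds. Of probes that name 1 gene 10.8% were under 0.25 in both groups of samples, of the 870 probes that name several genes 10.9%, and of the 1877 probes with no gene named 9.22%. The share close to 0 was 5.64% among probes that name 1 gene, 4.25% among probes that name several and 3.89% among those with no gene named. These shares are descriptions of the array and were not tested.

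Few of the genes carry a descriptive name. All 73 were matched to the gene table of the TAIR10.1 assembly, and it gives a symbol other than the locus identifier to 7 of them, or 9.59%. The same held for 85 of the 619 other probes that name 1 gene, or 13.7%. An eighth gene, AT5G65360, carries the synonym histone 3.1. The other 65 have a locus identifier only, and no function is given to them here.

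The 8 annotated genes do different things. In the group close to 0 were UPP, a uracil phosphoribosyltransferase that salvages pyrimidines, and ILA (ILITHYIA), a large protein related to the translation regulator GCN1 and known from plant immunity. IAA31, a member of the Aux/IAA family of auxin response repressors, the histone gene AT5G65360, and CCB3, a factor for cofactor assembly in the cytochrome b6f complex of photosynthesis, were also close to 0. In the dim group were FATB, the plastid enzyme that cuts saturated fatty acids from their carrier protein, CCS, the chaperone that delivers copper to copper/zinc superoxide dismutase, and IQD22, of a family of calmodulin-binding proteins.

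On its own probe, none of the 5 annotated genes close to 0 gave more than a trace. UPP was listed at 0 in all 6 dark samples and in 5 of 6 light samples, and stood at 0.00311 in light sample 6. ILA was listed at 0 in all 6 light samples and in 5 of 6 dark samples, and stood at 0.00156 in dark sample 6. IAA31 was likewise at 0 in all 6 light samples, with 0.0386 in dark sample 2 as its single value above 0. CCB3 had 0.0215 and 0.00137 in light samples 5 and 6, and 0.0345 in dark sample 1, with 0 in the other 9 samples. For all 5 of these genes the groups overlapped at 0.

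AT5G65360 codes for histone H3.1, the form of histone H3 that is built into chromatin when DNA is replicated. It was listed at 0 in every light sample, and its values above 0 were 0.0127 and 0.0250 in dark samples 2 and 3. The TAIR10.1 table gives the synonym histone 3.1 to 5 genes. Another of them, AT1G09200, has its own probe and is not among the 73: it averaged 0.236 ± 0.0396 in light and 0.400 ± 0.114 in the dark (SD, n = 6 each). Such gene copies are alike in sequence, so a probe may not tell them apart, and the difference between these probes was not tested.

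In the group close to 0, 10 genes were listed at 0 in all 12 samples. They were AT1G07970, AT1G12800, AT1G20130, AT1G66090, AT3G06200, AT3G50350, AT5G13410, AT5G25510, AT5G25990 and AT5G46420. Over the whole array 31 probes, or 0.901%, were at 0 throughout, and 1.45% of probes that name 1 gene. Without counts or a measure of background, these values give no upper limit for the transcript.

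The other 28 genes of this group had at least 1 value above 0, and 11 of them had exactly 1. No gene had more than 6 such values in the 12 samples, as AT3G47080 did. AT3G47080 had values of 6.33e-05 and 0.0095 in light, in samples 3 and 6, against 4 values from 0.00989 to 0.0590 in the dark. The highest value of the group in light was 0.0308, of AT1G18440 in sample 3, and the highest in the dark was 0.0902, of AT1G62760 in sample 2.

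Values above 0 were more numerous in the dark samples. In light 15 of the 228 values of these 38 genes were above 0, and in the dark 48 of 228. By gene, 1 had its values above 0 only in light (UPP), 18 only in the dark and 9 in both groups. The array as a whole leaned the same way. Of all 3439 probes 114 were at 0 in all 6 light samples and 34 in all 6 dark samples, with 31 at 0 in both. The number of the 38 genes above 0 ran from 0 to 6 per light sample, with a median of 1.5, and from 5 to 12 per dark sample, with a median of 8. Dark sample 2 had the most, with 12.

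**Figure D2:**
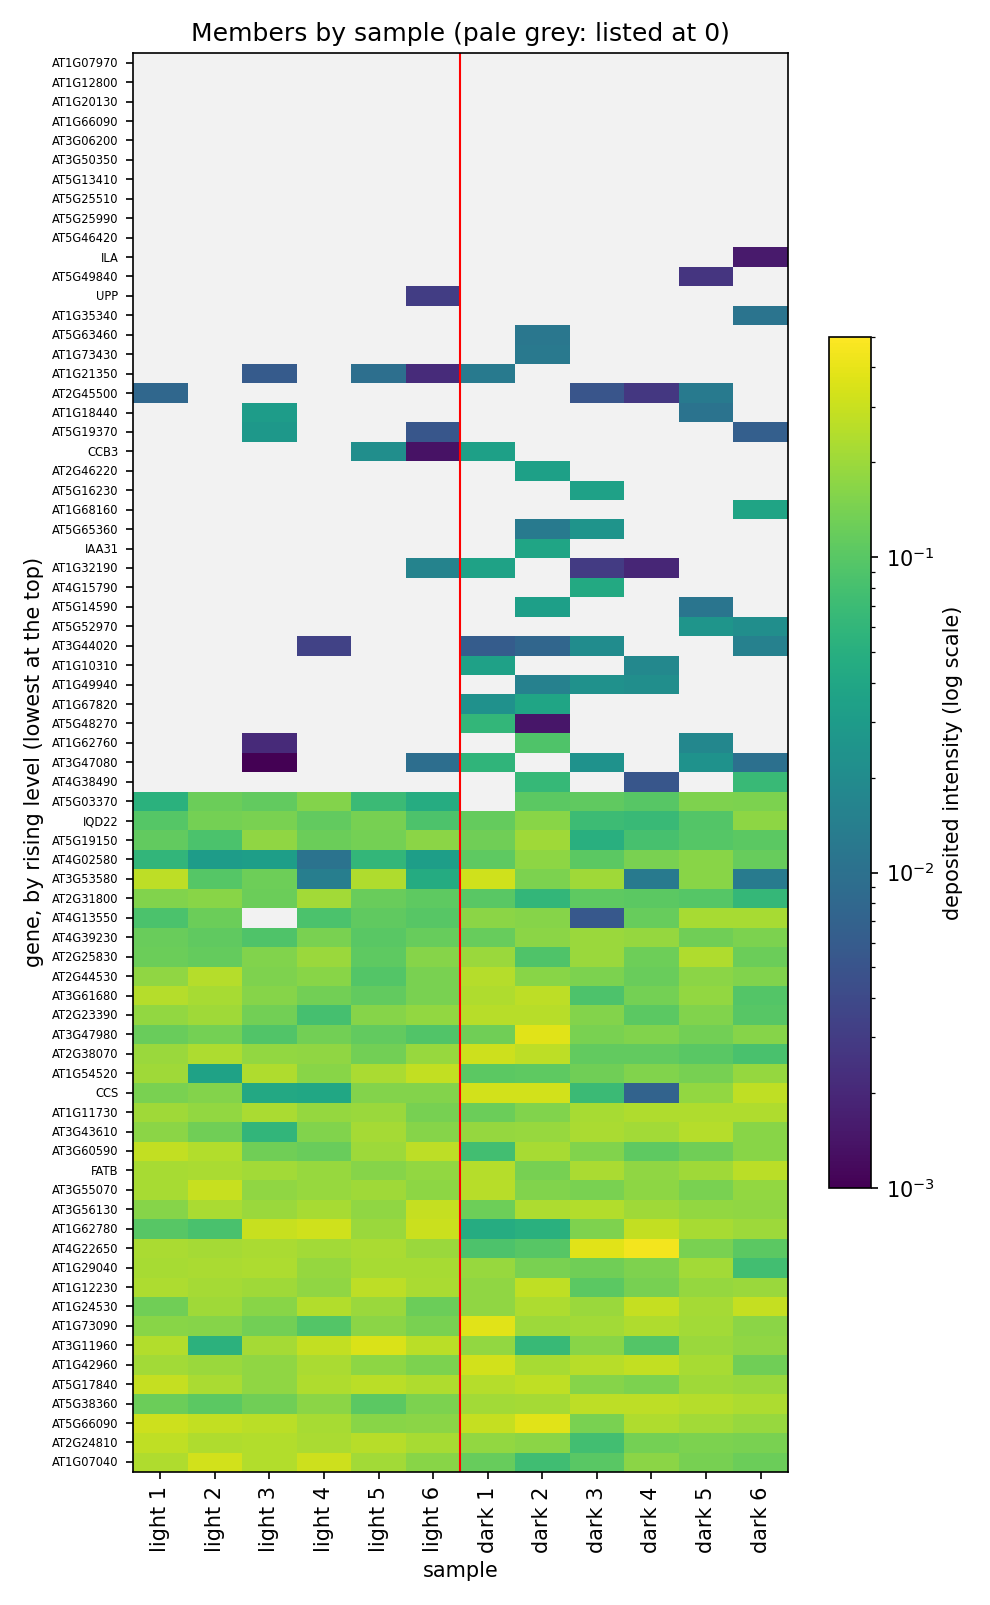
Deposited intensity (colour, log scale, values under 0.001 drawn in the darkest colour) of the 73 genes (rows, by rising level, lowest at the top) in light samples 1 to 6, left of the red line, and dark samples 1 to 6, right of it. Pale grey marks a value listed at 0. The upper 38 rows hold 15 values above 0 in light and 48 in the dark, and the lower 35 rows hold 1 value at 0 in each group.

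The same imbalance of zeros was measured on probes that the choice of genes did not use. Among the 2747 probes that name several genes or none, 106 to 113 were at 0 per light sample, with a mean of 109 ± 2.83, and 79 to 98 per dark sample, with a mean of 90.7 ± 6.50 (SD, n = 6 each). The groups did not overlap, and the difference was 18.3 probes (two-sided exact permutation over samples, p = 0.00216, which is the minimum with 924 assignments). Consecutive sample numbers resembled each other, and with each such pair averaged, 3 against 3, the exact permutation p was 0.1, the minimum with 20 assignments. Light and dark samples of equal number also deviated together. Both permutations moved samples freely and did not keep such samples together, so neither p allows for this pairing. Among the 73 genes, 35.7 ± 2.25 were at 0 per light sample and 30.2 ± 2.32 per dark sample (SD, n = 6 each). The median of all probes moved together with these zeros and was higher in light, and its part in them was not tested.

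**Figure D3:**
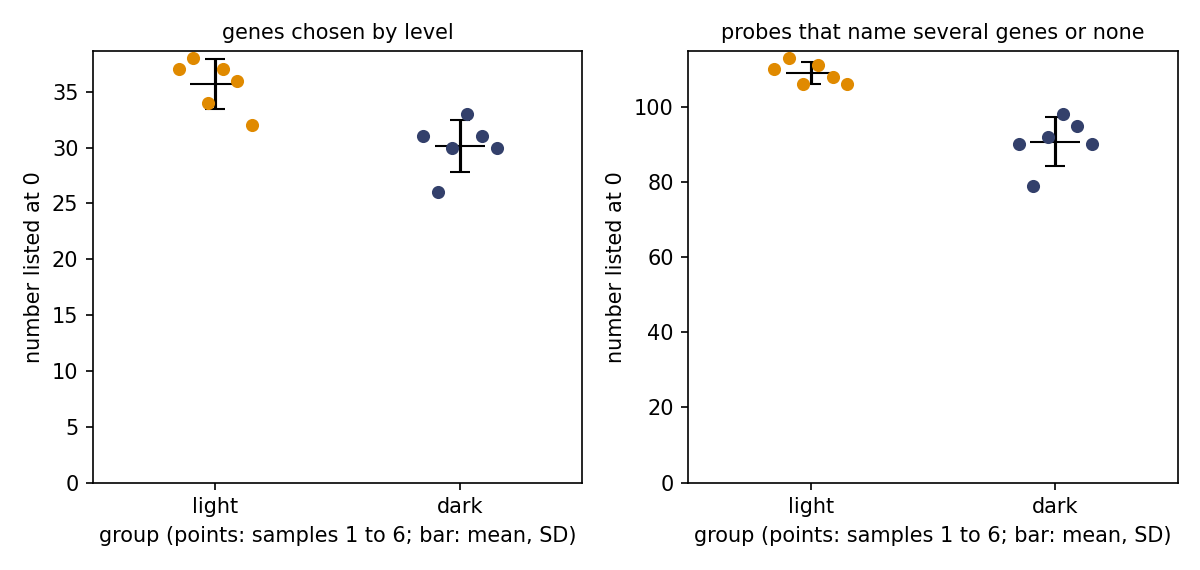
Number of probes listed at 0 (vertical axis) in each light and dark sample (points, samples 1 to 6 from left to right within a group; bars are the mean and SD). The left panel shows the 73 genes chosen by level, with 32 to 38 at 0 in light and 26 to 33 in the dark, and the right panel shows the 2747 probes that name several genes or none, where the light samples all lie above the dark samples.

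The 35 dim genes were above 0 in nearly every sample, with exceptions in light for AT4G13550 and in the dark for AT5G03370, each at 0 in 1 sample. Their median per sample was 0.163 to 0.185 in light and 0.147 to 0.182 in the dark. Against the median of all probes of the same sample this was 25.7% ± 1.36 in light and 35.5% ± 4.58 in the dark (SD, n = 6 each). The limit of 0.25 was the same for both groups while the array medians were not, so this share is set in part by the choice. All 73 genes together made up 0.167% ± 0.00501 of the summed intensity of a sample in light and 0.188% ± 0.0169 in the dark (SD, n = 6 each).

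The dim genes varied more between samples, relative to their level, than brighter genes did, which was not tested. The median coefficient of variation (SD over mean, n = 6) of the 35 genes was 0.240 in light and 0.315 in the dark. That of the 619 other probes that name 1 gene was 0.127 in light and 0.242 in the dark. The order of the 35 genes by level was kept moderately between light samples, with a median Spearman correlation of 0.50 over the 15 pairs of samples (0.22 to 0.73). Between dark samples it was 0.18 (-0.08 to 0.61), and between light and dark samples 0.09 over 36 pairs (-0.27 to 0.49). For the 619 other genes the median was 0.88 between light samples, 0.74 between dark samples and 0.58 between light and dark samples. The choice by level holds the 35 genes to a narrow range, which lowers such correlations, and samples compared share the array and its probes.

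Consecutive sample numbers tended to be more alike in the dim genes too, with ranges that overlapped those of other pairs. In light the Spearman correlations of samples 1 and 2, 3 and 4, and 5 and 6 were 0.60 to 0.73. Those of the other 12 pairs were 0.22 to 0.69. In the dark the consecutive pairs had 0.44 to 0.61 and the other 12 pairs -0.08 to 0.46. CCS is an example of such likeness among the annotated genes. Its intensity was 0.144, 0.157, 0.0423, 0.0400, 0.157 and 0.157 in light samples 1 to 6, against 0.329, 0.324, 0.0687, 0.00716, 0.182 and 0.274 in dark samples 1 to 6. Samples 3 and 4 were the lowest in both groups, and the groups overlapped. What a sample number stands for is not given in the labels.

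AT4G22650, one of the 5 genes with the highest mean over all 12 samples, also followed the numbers, though in the dark only. It ran from 0.196 to 0.230 in light, with a median of 0.220. In the dark it had 0.376 and 0.454 in samples 3 and 4, and 0.0875 to 0.142 in the other 4 samples. The light values lay inside the range of the dark ones. The other 4 of those 5 were AT5G66090, AT5G17840, AT1G42960 and AT1G24530, with means of 0.177 to 0.239 in light and 0.205 to 0.242 in the dark.

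On their own probes, the other annotated dim genes differed little between the groups on the deposited scale. FATB had 0.163 at the lowest, a median of 0.201 and 0.227 at the highest in light, against 0.140, 0.216 and 0.262 in the dark. IQD22 had 0.0885, 0.125 and 0.142 as its lowest, median and highest value in light, against 0.0672, 0.105 and 0.174 in the dark. In both genes the light values fell within the range of the dark ones.

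On the deposited scale 4 of the 73 genes had groups that did not overlap, all of them dim. Of all probes 38.8% had groups that did not overlap (29.1% with light above and 9.62% with light below). Since the choice held both means under the same limit, nothing is read from the smaller share. AT5G38360 had 0.104 at the lowest, a median of 0.127 and 0.171 at the highest in light, against 0.209, 0.243 and 0.268 in the dark. AT4G02580 had 0.0106, 0.0323 and 0.0615 in light, against 0.104, 0.131 and 0.176 in the dark. Both were lower in every light sample than in any dark sample.

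The reverse held for AT2G24810 and AT2G31800. AT2G24810 had 0.222 at the lowest, a median of 0.241 and 0.278 at the highest in light, against 0.0766, 0.144 and 0.180 in the dark. AT2G31800 had 0.107, 0.139 and 0.209 in light, against 0.0613, 0.0997 and 0.107 in the dark. Its lowest light and highest dark value were nearly equal, and the median of all probes was also higher in light on this scale. AT4G02580 and AT2G31800 were named after their values were seen.

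**Figure D4:**
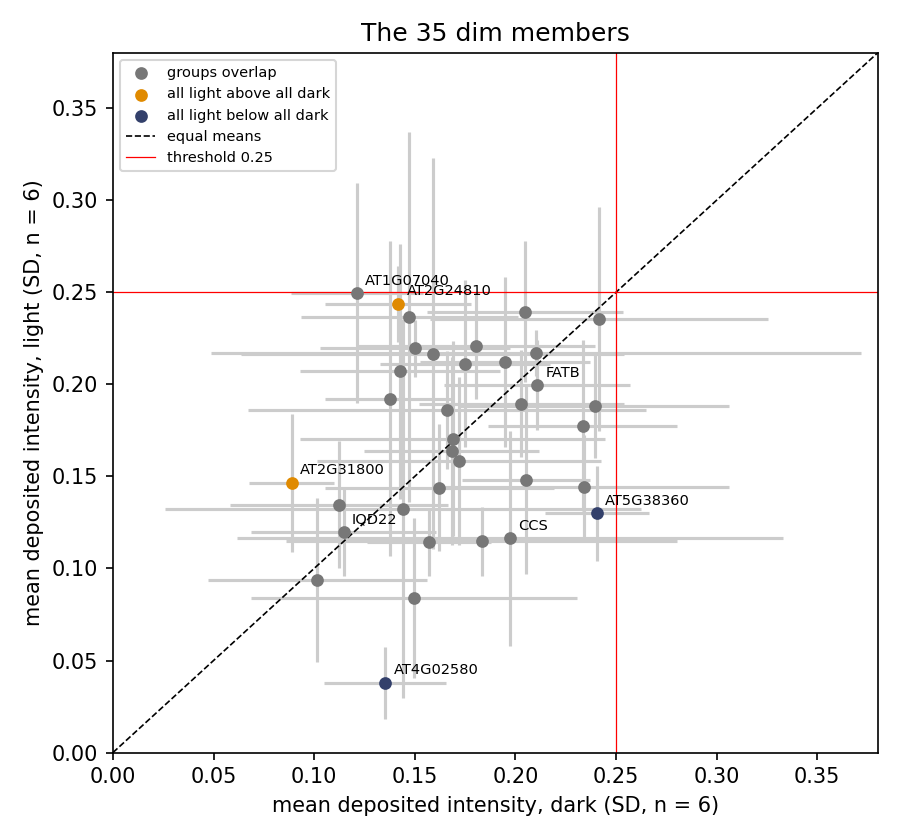
Mean deposited intensity in light (vertical axis) against that in the dark (horizontal axis) of the 35 dim genes, with SD bars (n = 6 each). The dashed line marks equal means and the red lines the limit of 0.25 that chose the genes. AT5G38360 and AT4G02580 lie below the dashed line with no overlap of samples, and AT2G24810 and AT2G31800 above it.

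To set the genes beside all probes on a common scale, the intensities were quantile normalised, values under the 5th percentile of each sample's positive values were raised to that floor, and light was compared with dark by limma. The floor stood at 0.145 to 0.153 in light samples and 0.129 to 0.142 in dark samples. All 38 genes close to 0 were at the floor in all 12 samples, so they have no measured difference. Of the 35 dim genes 33 had at least 1 value at the floor, and 8 were at the floor in most samples. Only AT3G55070 and AT5G17840 were above it throughout.

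Of the 73 genes 10 passed a limma adjusted p under 0.05, against 52.5% of all probes. They were 9 of lower and 1 of higher normalised intensity in light, while 29% of all probes were lower and 23.6% higher. Both means that make this difference chose the genes, so the counts are given with no reading. The median difference was -0.25 on the log2 scale over the 35 dim genes and 0.01 over all probes. Without sample 6 of both groups 6 genes passed. With pairs of consecutive numbers averaged 5 passed, all lower in light, against 34.9% of all probes (15.1% higher and 19.7% lower).

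The count and its split depended on the scaling. As deposited 48 of the 73 passed, 46 higher and 2 lower in light, against 63.8% of all probes (49.9% higher and 13.9% lower), but 38 of the 48 were the genes close to 0, whose values there are the floors of the samples. With each array centred on its median 13 passed, 0 higher and 13 lower, against 52.4% of all probes (19.9% higher and 32.5% lower).

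Among the genes of lower normalised intensity in light, AT5G38360 stood at -0.96 ± 0.06 (log2 difference ± SE, n = 6 each), with all 6 light samples at the floor. Its light values in this fit are the floors, so the SE holds none of its own spread in light. As deposited that spread was an SD of 0.0258 about a mean of 0.130. AT1G73090 stood at -0.86 ± 0.17, with 5 of 6 light samples at the floor, and CCS at -0.75 ± 0.28, with 5 light and 2 dark samples there. AT1G42960 stood at -0.73 ± 0.19 and AT1G24530 at -0.72 ± 0.15, with 1 and 3 light samples at the floor. Another probe, which names AT1G24530 together with other genes, was higher in light as deposited. It averaged 1.71 ± 0.258 in light and 0.418 ± 0.0770 in the dark (SD, n = 6 each), and its signal cannot be assigned to any of these genes. The groups of AT1G73090, CCS, AT1G42960 and AT1G24530 overlapped as deposited. FATB was at -0.49 ± 0.16.

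The floor set the sizes and the order of these differences. With the floor at the 10th percentile the log2 difference was -0.43 for AT5G38360, -0.43 for AT1G42960, -0.35 for AT1G24530 and -0.33 for AT1G73090, and the last of these no longer passed. With the floor at the 1st percentile AT5G38360 stood at -1.32 and AT1G73090 at -1.09.

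Of these 6 genes AT5G38360 alone passed under every alternative that tested it. The alternatives refit the same values, and the means of those values also chose the genes. Passing thus describes how a call depends on processing and gives no independent support. CCS did not pass as deposited, with either other floor, with pairs of consecutive numbers averaged, or without sample 1, 2, 5 or 6 of both groups (limma adjusted p of 0.0747 to 0.401 in these 8 fits). FATB did not pass as deposited, with the floor at the 10th percentile, with pairs averaged, or without sample 3, 5 or 6 (limma adjusted p of 0.0590 to 0.795 in these 6 fits). AT1G42960 and AT1G24530 did not pass as deposited, at -0.29 and -0.30 (limma adjusted p of 0.194 and 0.103).

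AT1G07040 was the 1 gene with a higher normalised intensity in light among the 10, at 0.50 ± 0.14 (log2 difference ± SE, n = 6 each), with 2 dark samples at the floor. Its deposited intensity was 0.167 at the lowest, 0.242 at the median and 0.326 at the highest in light, against 0.0741, 0.121 and 0.170 in the dark. The groups touched, as the highest dark value lay just above the lowest light value. It did not pass with pairs of consecutive numbers averaged, with the floor at the 10th percentile or with each array centred on its median.

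Of the 4 genes whose groups were apart on the deposited scale, 3 did not pass after normalisation. AT4G02580 had a normalised difference of -0.11 ± 0.12 (log2 ± SE, n = 6 each), as all 6 light samples and 3 of 6 dark samples were raised to the floor. AT2G24810 stood at 0.27 ± 0.13, with 2 dark samples at the floor, and AT2G31800 at 0.16 ± 0.06, with 4 light samples and all 6 dark samples there. The floors alone differed by 0.12 between light and dark in this fit, as the 38 genes close to 0 show. The 0.16 of AT2G31800 is therefore not a measured difference of that gene alone. IQD22 had the same number of samples at the floor in each group as AT4G02580, and its difference was -0.11 ± 0.12 as well.

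**Figure D5:**
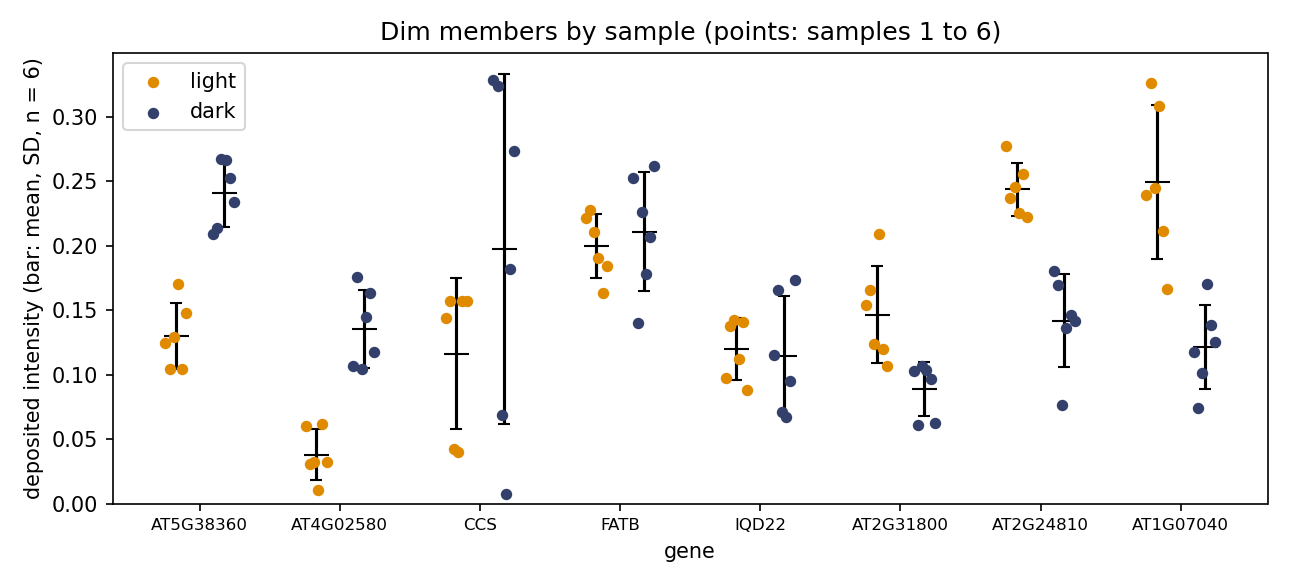
Deposited intensity (vertical axis) of 8 dim genes (horizontal axis) in light samples 1 to 6 (orange, left of each pair) and dark samples 1 to 6 (blue, right of each pair); bars are the mean and SD, n = 6. In CCS samples 3 and 4 are low in both groups, and in AT5G38360 and AT4G02580 every light value lies below every dark value.

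The limit of 0.25 fell inside a continuous run of levels. The 5 just inside were AT1G07040, AT2G24810, AT5G66090, AT5G38360 and AT5G17840, with a higher group mean of 0.239 to 0.2496. The 5 just outside were AT4G16060, AT5G52660, AT2G38570, AT5G55220 and AT1G50000, with a higher group mean of 0.251 to 0.261. AT2G38570, for instance, averaged 0.256 ± 0.156 in light and 0.196 ± 0.121 in the dark (SD, n = 6 each). With a limit of 0.20 in place of 0.25 there were 54 genes, all 38 close to 0 among them, and with 0.30 there were 101.

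For 11 of the 73 genes another probe names the same gene together with others. Of these 11 probes 9 were above the limit of 0.25 in at least 1 group, with means of 0.448 to 1.71 in light and 0.175 to 0.884 in the dark. Their signal cannot be assigned to any of the genes they name. Of the annotated genes, IAA31 and FATB have such a probe. That of IAA31 averaged 1.03 ± 0.0363 in light and 0.566 ± 0.229 in the dark (SD, n = 6 each). That of FATB averaged 0.529 ± 0.0726 in light and 0.884 ± 0.146 in the dark. The probe of AT1G24530 is given above. The other 2 of the 11 probes were close to 0, at 0 in all light samples and with means of 0.000367 and 0.00128 in the dark. One names AT1G12800, which was at 0 in all samples on its own probe too, and the other AT3G60590, whose own probe was dim, at 0.207 ± 0.0693 in light and 0.143 ± 0.0496 in the dark (SD, n = 6 each).

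The genes were spread over all 5 nuclear chromosomes by their locus identifiers, with 26 on chromosome 1, 8 on chromosome 2, 14 on chromosome 3, 7 on chromosome 4 and 18 on chromosome 5. In percent this is 35.6, 11.0, 19.2, 9.59 and 24.7, against 23.9, 18.7, 18.7, 18.3 and 20.2 for the other probes that name 1 gene. In the order of protein-coding genes in TAIR10.1, 1 pair of the 73 lay within 5 steps of each other, AT1G62760 (close to 0) and AT1G62780 (dim), which are 2 steps apart. No test was made of this spread.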

How the data were processed

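The data are 1 table of 12 columns (6 light, 6 dark), all used, of deposited intensities on a linear scale. How the authors made these intensities is not given in the sources used. Groups and numbers came from the sample titles. The platform annotation names 1 gene for 692 probes, and TAIR10.1 matched 690 of them, for names and gene order only.

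Levels were described as deposited. For light against dark, all 3439 probes were quantile normalised, raised to the floor (5th percentile of positive values), log2 transformed and fitted with limma 3.58.1 in R 4.3.3, with Benjamini-Hochberg adjustment over all probes. The fit was tested on simulated data. Depth does not apply, and the number of arrays limits the precision. Equal numbers in both groups deviated together (correlations of 0.41 to 0.65 over all probes). Each of the 6 light samples correlated most with the dark sample of its number. The samples thus behaved as pairs by number, though the labels do not name such a pairing. The main fit and the permutations did not use this pairing. Only the fit with the replicate number as a block did. Genes, limits and lists were chosen with earlier results of these data known. The genes named are those with a symbol or descriptive synonym, those listed at 0 throughout, the 5 highest means, up to 5 called in each direction and those next to the limit. No cell types were compared. Protein and promoter sequences were not used here.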

Additional observations from a re-analysis of the deposited data

Results flagged for a closer look

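Among 48 groups of 6 values examined, 6 held a sample that stood apart by Dixon's gap criterion, which chance meets in about 1 in 20 groups. In 4 of them the 5 other samples were all at 0, so any value above 0 stands apart: 0.0386 for IAA31 in dark sample 2, 0.0345 for CCB3 in dark sample 1, 0.00156 for ILA in dark sample 6 and 0.00311 for UPP in light sample 6. CCB3 had 0.0215 in light sample 5, against 0 to 0.00137 in the other light samples. AT1G73090 had 0.374 in dark sample 1, while its other 5 dark values ran from 0.169 to 0.241.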

How the results depend on the processing

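The number of genes under the limit was 71 to 77 when a sample number was left out of both groups, 75 by group medians and 74 on quantile-normalised intensities, of which 67 were among the 73. Counting values under 0.05 as no signal gave 34 genes without signal in all 12 samples, against 10 at exactly 0. As deposited and with a floor at the 1st percentile 48 of the 73 genes passed the limma adjusted p, of which 38 as deposited and 36 with the lower floor were genes close to 0. As deposited the 38 were at the floors of all samples. With a floor at the 10th percentile 3 passed (1773 of all probes), and with pairs of consecutive numbers averaged 5 (1199 of all probes). With a sample number left out 6 to 10 passed (1644 to 1700 of all probes). The same 3, 5, and 6 to 10 hold for the 35 dim genes alone. With the replicate number as a block 12 passed (2069 of all probes). Without probes below the 25th percentile none of the 73 was tested. Of the 7 named genes that passed, 4 lost the call as deposited (CCS, FATB, AT1G42960, AT1G24530), 4 with the floor at the 10th percentile (CCS, FATB, AT1G73090, AT1G07040), 3 with pairs averaged (CCS, FATB, AT1G07040), 1 with the floor at the 1st percentile (CCS), 1 with arrays centred (AT1G07040), and 0 to 2 with a sample number left out. None of the 7 changed direction where tested. The difference of 18.3 probes at 0 had an exact permutation p of 0.1 with pairs averaged. Signal near the floor limits every difference given.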
